A study of Mus musculus with 18 samples.

Results

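Cd79a, Cd79b, Ms4a1, Cd22, Blk, Pou2af1, Mzb1 and Xbp1 are genes used as markers of B cells and antibody-secreting plasma cells, and their expression was followed in single mammary tumours of mice. They are 8 of the 19938 genes named by a probe set of 1 gene, and each had 1 such probe set. The tumours arose in mice with an ERBB2 (neu) transgene of the strain FVB/N-Tg(MMTVneu)202Mul/J, in which the MMTV promoter drives the oncogene mainly in mammary epithelium. All 6 groups carry it, and all are labelled as luminal ERBB2+ tumours. Snai2, a transcription factor, was either deleted in the germline (KO, from the B6;129S1-Snai2tm2Grid/J line) or intact (WT), so the groups descend from more than 1 strain. KO tumours came from parous mice with metastasis (3 arrays), parous mice without metastasis (3), 1 nulliparous mouse with metastasis and nulliparous mice without metastasis (3). WT tumours came from parous and nulliparous mice with metastasis (4 arrays each). The sources used here give no ages, and no WT mouse without metastasis is among the samples.

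B cells carry an antibody on their surface as an antigen receptor, which signals through the paired chains CD79A and CD79B. When a B cell matures into a plasma cell it shuts down much of this surface program and secretes antibody in bulk, which needs an enlarged endoplasmic reticulum. In the mammary gland, plasma cells that make IgA gather around lactation, and luminal epithelium, itself a secretory tissue, uses part of the same secretory machinery. A bulk tumour gives 1 value for all its cells, so fewer cells of a type and less RNA per cell cannot be told apart.

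Promoter windows of RefSeq (GRCm38.p6, 250 bases before to 50 after an annotated gene start) were searched for 4 markers. They are printed for 3 of these. No windows are reported for the other markers, Mzb1 among them. Cd79a and Pou2af1 were highest in the same tumour, by 0.55 and 0.71 on the log2 scale over the next sample, and Xbp1 was not. The windows lie at chr7:24897247-24897546 for Cd79a, chr9:51213440-51213739 for Pou2af1 and chr11:5520391-5520690 for Xbp1, all on the plus strand. Capitals mark the letters of a PU.1 core, GAGGAA, or its reverse complement, TTCCTC. PU.1 is a transcription factor of B and myeloid cells.
Cd79a: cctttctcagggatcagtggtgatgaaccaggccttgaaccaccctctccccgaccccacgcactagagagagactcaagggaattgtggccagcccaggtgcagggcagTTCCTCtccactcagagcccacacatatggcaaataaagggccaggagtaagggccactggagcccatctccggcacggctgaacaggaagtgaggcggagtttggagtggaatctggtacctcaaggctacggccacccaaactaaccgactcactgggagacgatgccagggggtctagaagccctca
Pou2af1: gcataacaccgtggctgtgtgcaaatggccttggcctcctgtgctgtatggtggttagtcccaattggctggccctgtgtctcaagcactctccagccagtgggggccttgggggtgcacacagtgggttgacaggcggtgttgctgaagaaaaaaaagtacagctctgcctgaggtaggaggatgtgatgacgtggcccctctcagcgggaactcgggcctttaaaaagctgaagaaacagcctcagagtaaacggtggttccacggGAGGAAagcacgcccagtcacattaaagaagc
Xbp1: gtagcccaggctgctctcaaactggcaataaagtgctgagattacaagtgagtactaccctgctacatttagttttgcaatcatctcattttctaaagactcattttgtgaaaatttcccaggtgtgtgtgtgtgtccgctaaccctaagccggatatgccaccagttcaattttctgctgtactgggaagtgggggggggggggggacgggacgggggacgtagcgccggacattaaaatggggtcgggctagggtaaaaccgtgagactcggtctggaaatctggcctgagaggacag
The match began at position -140 from the annotated start in Cd79a, as the reverse complement, and at position 18 in Pou2af1. The windows of Xbp1 and of Cd22, which is not printed, held 0 matches. Cd22 too had its highest value in the tumour in which Cd79a and Pou2af1 stood apart. These letters occur on 1 strand or the other in 28.3% of 32851 windows of the same length, so a match in a window is common. Both strands were also searched for the octamer ATGCAAAT, the element that Oct factors bind with the protein of Pou2af1, found in 1.74% of all windows, and for CCCNNGGG, a core bound by EBF1, found in 13.7%. The octamer was found in 0 of the 4 windows. The EBF core was found in that of Cd22, at position -48 from an annotated start that lies inside the gene. This window is at chr7:30878979-30879278 on the minus strand, and the gene spans 30865404 to 30880342. A match of letters is a description and does not show that a factor binds.

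Replicates 2 and 3 of the KO parous group with metastasis were nearly identical and were averaged, which left 17 samples. Their difference had an SD of 0.103 over 11314 genes with a mean log2 of 8 or more, while no other of the 153 array pairs came below 0.285. Log2 values of Snai2 lay between 6.28 and 6.79 in KO (n = 9) and between 6.68 and 7.09 in WT tumours (n = 8), so the genotypes overlapped on this dim probe set. Where its probes lie relative to the deletion is not known here. Krt8, a keratin of luminal epithelium, lay between 12.86 and 13.66 and Erbb2 between 12.45 and 12.92 over all samples, so the markers that define the labelled tissue were bright.

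The B cell and plasma cell markers set 1 tumour apart, the lone KO nulliparous mouse with metastasis. Of the 8 markers, 6 had their highest log2 value of all 17 samples in it, and Blk and Xbp1 ranked second there. Over all genes, 602 of 19938 (3.02%) were highest in this tumour. For 4 markers (Cd79a, Ms4a1, Pou2af1 and Mzb1) the gap above the next tumour was wider than the whole range of the 16 other samples, against 23 of 19938 genes (0.115%). Of the next highest tumours, 7 of 8 were WT nulliparous, and 4 of these were replicate 3 of that group.

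**Figure D1:**
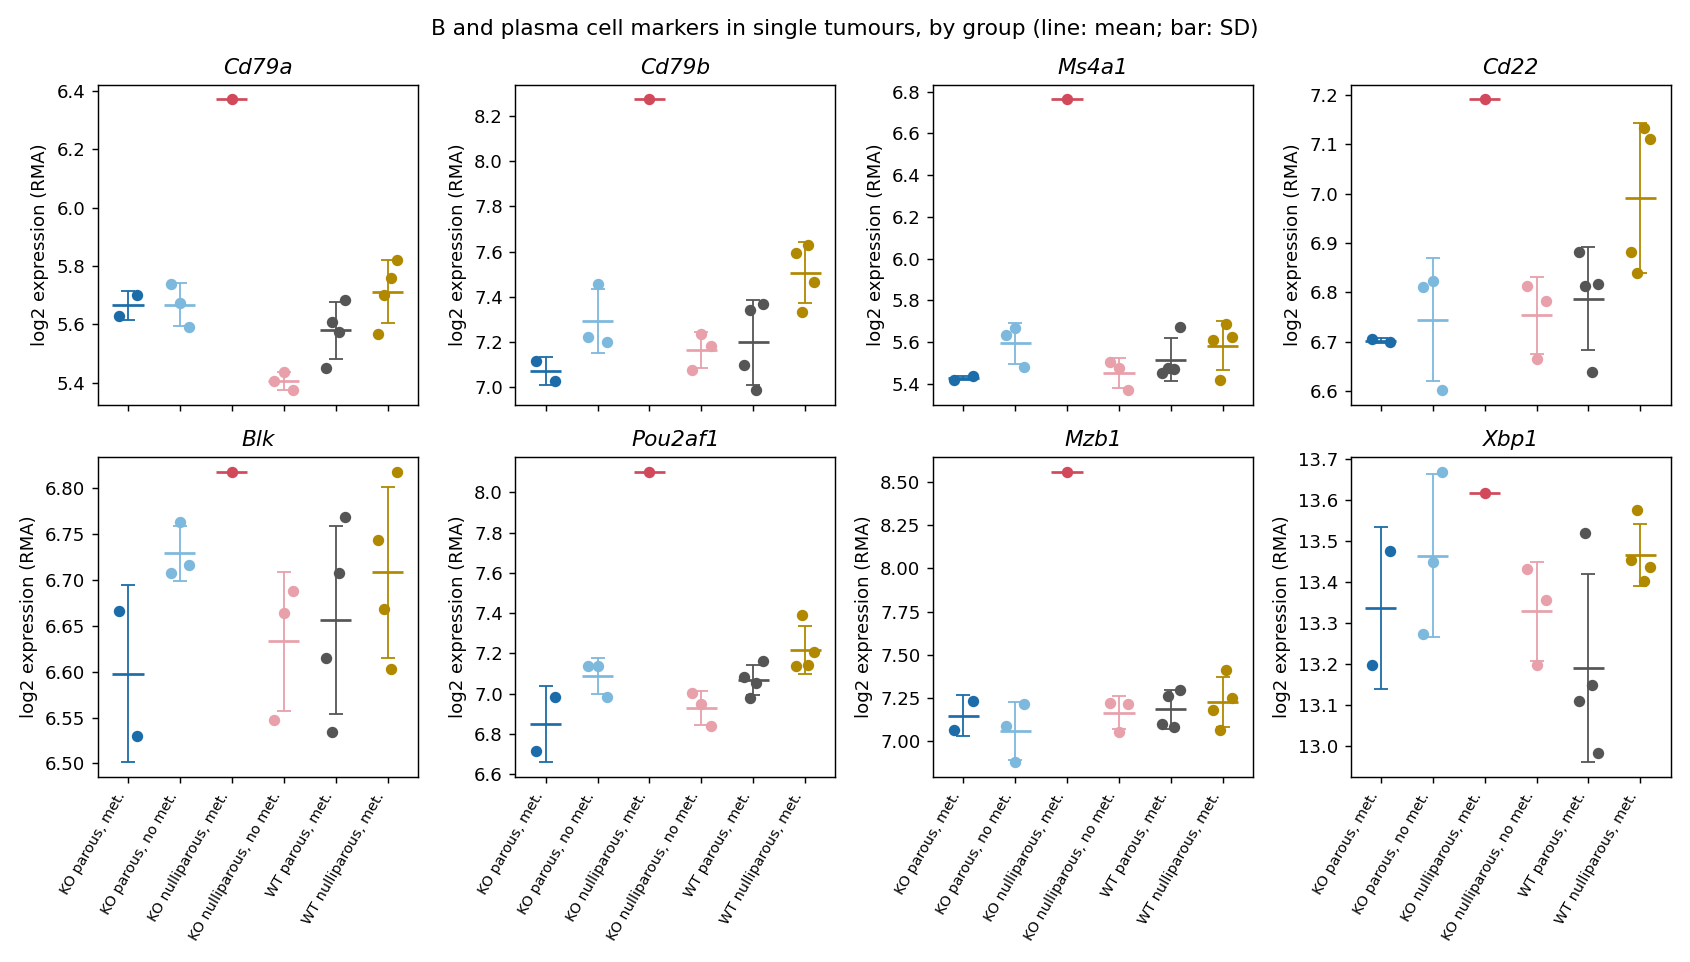
Log2 expression (y axis, RMA) of each marker in every sample (points) by group (x axis), with the group mean (line) and SD (bar); axes differ between panels and do not start at 0. The lone KO nulliparous tumour with metastasis (red) lies at 8.56 for Mzb1 and 6.76 for Ms4a1, above all other samples, but its 6.82 for Blk and 13.62 for Xbp1 are each passed by another sample.

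Cd79a encodes one of the signalling chains of the B cell receptor. Its log2 value was 6.37 in the lone tumour, 5.40, 5.44 and 5.37 in KO nulliparous tumours without metastasis, and 5.57, 5.70, 5.76 and 5.82 in WT nulliparous tumours. In parous mice it was 5.63 and 5.70 in KO tumours with metastasis, 5.74, 5.67 and 5.59 in KO tumours without, and 5.45, 5.61, 5.57 and 5.68 in WT tumours. The lone tumour was the highest, and the 3 KO nulliparous tumours without metastasis were the lowest 3 of the 17 samples, as they were for 38 of all 19938 genes (0.191%).

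Cd79b encodes the partner chain. Its log2 value was 8.27 in the lone tumour, 7.07, 7.23 and 7.18 in KO nulliparous tumours without metastasis, and 7.59, 7.33, 7.63 and 7.47 in WT nulliparous tumours. In parous mice it was 7.11 and 7.02 in KO tumours with metastasis, 7.22, 7.46 and 7.20 in KO tumours without, and 7.10, 7.34, 6.99 and 7.37 in WT tumours. After the lone tumour the WT nulliparous group had the highest mean, 7.51 ± 0.14 (SD, n = 4), and it overlapped the parous groups without metastasis and of WT genotype.

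Ms4a1 encodes CD20, a membrane protein of B cells that is lost in plasma cells. Its log2 value was 6.76 in the lone tumour, 5.51, 5.48 and 5.37 in KO nulliparous tumours without metastasis, and 5.61, 5.42, 5.69 and 5.62 in WT nulliparous tumours. In parous mice it was 5.42 and 5.44 in KO tumours with metastasis, 5.63, 5.67 and 5.48 in KO tumours without, and 5.45, 5.48, 5.47 and 5.67 in WT tumours. The other 16 samples spanned 0.32 on the log2 scale, and the lone tumour stood 1.08 above the highest of them.

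Cd22 encodes an inhibitory lectin that damps receptor signals, and Blk a Src family kinase that acts downstream of the receptor. Cd22 was 7.19 in the lone tumour against 6.60 to 7.13 in the others, with WT nulliparous replicates 3 (7.13) and 4 (7.11) next. Blk was 6.82 both in the lone tumour and in WT nulliparous replicate 4, and the others lay from 6.53 up to that level. The lone tumour thus ranked first for Cd22 and second for Blk, without standing clear of the others.

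Neighbouring groups overlapped in all their ranked means of Cd22 and Blk below the lone tumour. The group means ran from 6.70 ± 0.0054 (SD, n = 2) in KO parous tumours with metastasis to 6.99 ± 0.15 (SD, n = 4) in WT nulliparous tumours for Cd22. For Blk they ran from 6.60 ± 0.096 (SD, n = 2) to 6.73 ± 0.030 (SD, n = 3), the latter in KO parous tumours without metastasis.

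Pou2af1 encodes a B cell coactivator that works with Oct factors at immunoglobulin promoters. Its log2 value was 8.10 in the lone tumour, 7.003, 6.95 and 6.84 in KO nulliparous tumours without metastasis, and 7.14, 7.39, 7.14 and 7.20 in WT nulliparous tumours. In parous mice it was 6.71 and 6.98 in KO tumours with metastasis, 7.14, 7.14 and 6.98 in KO tumours without, and 7.08, 6.98, 7.05 and 7.16 in WT tumours. The lone tumour stood 0.71 above the next, and KO parous replicate 1 with metastasis was the lowest.

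Mzb1 encodes an endoplasmic reticulum cochaperone of B and plasma cells that helps antibody assembly. Its log2 value was 8.56 in the lone tumour, 7.22, 7.05 and 7.22 in KO nulliparous tumours without metastasis, and 7.18, 7.06, 7.41 and 7.25 in WT nulliparous tumours. In parous mice it was 7.06 and 7.23 in KO tumours with metastasis, 7.09, 6.88 and 7.21 in KO tumours without, and 7.10, 7.26, 7.08 and 7.30 in WT tumours. Its gap of 1.15 was the widest of the 8, while the means of the other 5 groups lay between 7.06 and 7.23 and overlapped.

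Xbp1 encodes a transcription factor of the unfolded protein response that plasma cells need for secretion and that luminal epithelium also expresses. It was 13.62 in the lone tumour, 13.43, 13.20 and 13.36 in KO nulliparous tumours without metastasis, and 13.45, 13.57, 13.40 and 13.44 in WT nulliparous tumours. In parous mice it was 13.20 and 13.48 in KO tumours with metastasis, 13.27, 13.45 and 13.67 in KO tumours without, and 13.11, 13.52, 13.15 and 12.98 in WT tumours. Xbp1 was bright in every tumour, and below the lone tumour neighbouring groups overlapped throughout the order of means.

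As a scale for the dim markers, 1015 olfactory receptor genes, which mammary tumours are not known to use, had mean log2 values from 4.66 (5th percentile) to 6.89 (95th percentile). Outside the lone tumour, Cd79a averaged 5.61 and Ms4a1 5.52, within that span, as were Cd22 (6.81) and Blk (6.67), whereas Pou2af1 (7.06), Mzb1 (7.16) and Cd79b (7.27) lay just above it. Probe sets differ in brightness, so this places no marker above or below another, but small differences of these genes lie where RMA values are compressed.

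The lone KO nulliparous tumour with metastasis and the 3 KO nulliparous tumours without are the samples that bear on metastasis in that arm. They were compared because the tumour had been seen to stand apart, so the differences describe that tumour and the p-values are no independent test of metastasis. Mzb1 was higher by 1.40 on the log2 scale (SE 0.15), a 2.64-fold difference, Pou2af1 by 1.17 (SE 0.13) and Cd79b by 1.11 (SE 0.16). Ms4a1 was higher by 1.31 (SE 0.12) and Cd79a by 0.97 (SE 0.11). For these 2 genes no fold is given, because their values of 6.76 and 6.37 in the lone tumour also lie within the span of the olfactory receptor genes. The log2 differences of Cd22 (0.44), Xbp1 (0.29) and Blk (0.18) were smaller. The median of the 8 markers was 1.04, beside -0.02 over all genes. Whether the first 5 pass depends on where the spread comes from, since 1 tumour has none of its own. With the spread of all 6 groups, limma gave those 5 markers adjusted p from 0.000141 to 0.0109 (Benjamini-Hochberg over all genes) and called 28 of 19938 genes (0.14%). With that of the 3 KO tumours alone, 0 markers and 0 genes were called (adjusted p from 0.322 to 0.383 for the same 5).

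The same tumour was also set against the 4 WT nulliparous tumours with metastasis, again after its values had been seen. Mzb1 was higher in it by 1.34 (SE 0.15), Ms4a1 by 1.18 (SE 0.11), Pou2af1 by 0.88 (SE 0.12), Cd79b by 0.77 (SE 0.15) and Cd79a by 0.66 (SE 0.10). Cd22, Xbp1 and Blk stood at 0.20, 0.15 and 0.11. With the spread of all groups, limma called 4 markers, all but Cd79b of the first 5, among 17 genes (0.0853%), with adjusted p from 0.000341 to 0.0284. With the spread of the WT tumours alone, 0 markers and 10 genes were called (adjusted p from 0.267 to 0.668 for the 4). The call of Cd79a also ended when 1 of several other samples was left out (adjusted p from 0.0504 to 0.0765). With the dimmest 40% of genes left out, Xbp1 alone of the markers is tested. Both comparisons share the lone tumour and are not independent of each other.

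**Figure D2:**
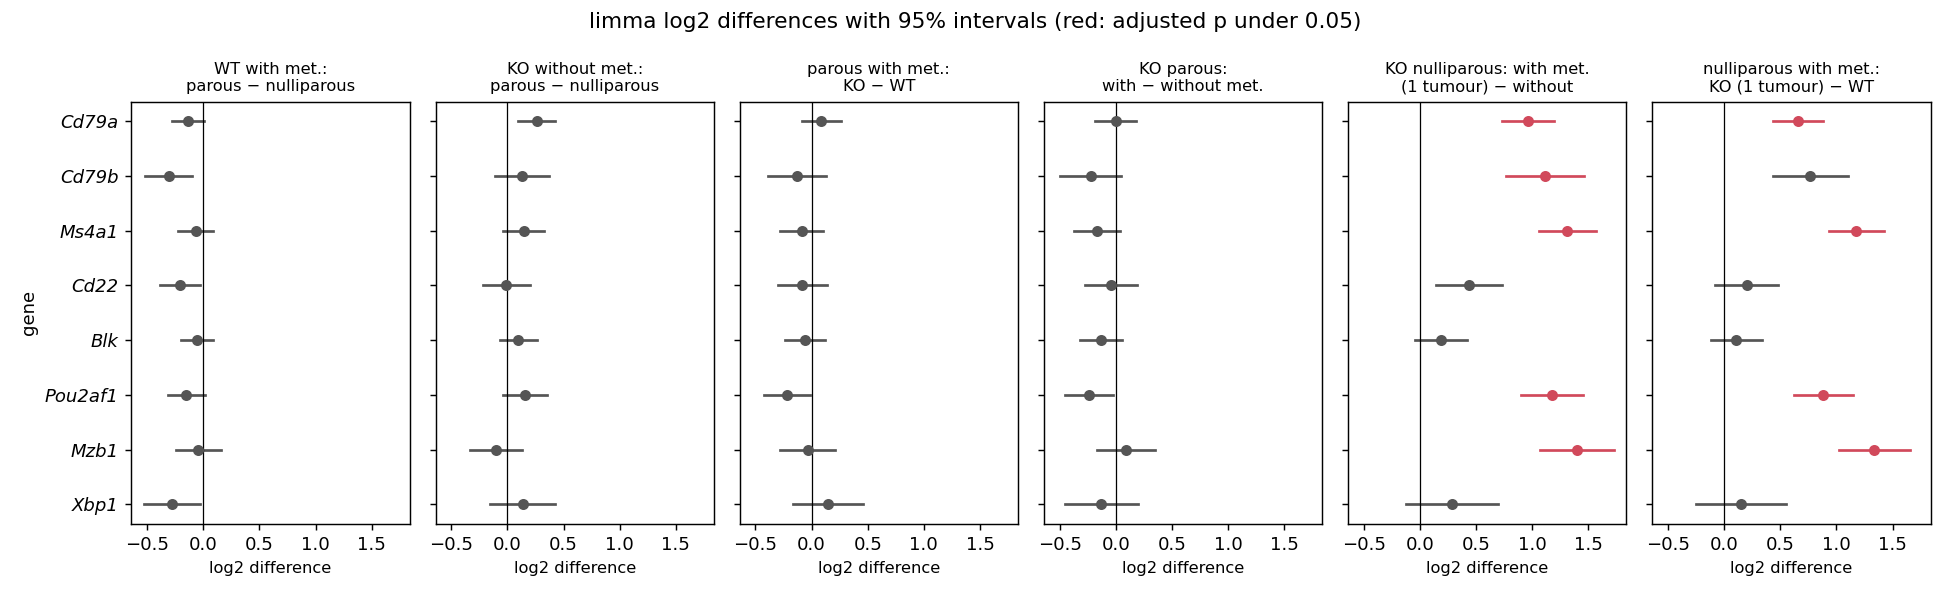
Log2 differences (x axis) of the 8 markers (y axis) in 6 comparisons of groups, as limma estimates (points) with 95% intervals (lines); red marks an adjusted p under 0.05 with the spread of all groups. Red appears in the last 2 panels, which rest on the lone KO nulliparous tumour with metastasis and were added after its values were seen, for 5 and 4 markers.

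Immunoglobulin genes were also far higher in this tumour. Ighm, the constant region of IgM, was 9.77 there and from 7.26 to 7.75 in the other 16 samples, and its log2 difference from the KO nulliparous tumours without metastasis was 2.37 (SE 0.15). Igha, the constant region of IgA, was 11.48 there against 6.54 to 9.16 elsewhere, with a difference of 4.43 (SE 0.65). Of the kappa variable genes, Igkv9-120 was 10.89 there against 5.47 to 6.40 (difference 5.22, SE 0.24), and Igkv10-96 was 10.76 against 5.08 to 7.92 (difference 5.29, SE 0.64). Igkv8-30, Igkv6-20, Igkv5-43 and Ighg3 were higher by 3.70, 2.62, 1.26 and 0.87. These 8 genes are among the 11 immunoglobulin genes with a probe set of their own. Like those of the markers, their differences rest on 1 tumour and were taken after its values had been seen.

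In all, 10 of the 11 immunoglobulin genes had their highest value in the lone tumour. Igkv4-55 was the exception. A further 14 probe sets that the annotation assigns to several immunoglobulin genes at once were all highest in that tumour, by a median of 4.23 over the median of the others (from 1.31 to 5.31). Immunoglobulin genes resemble each other closely, so a probe set may read more genes than its name says.

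Genes of plasma cells did not move together. Of 13, 6 were higher and 7 lower in the lone tumour than in KO nulliparous tumours without metastasis, with a median log2 difference of -0.001. By mean log2 value of the list the lone tumour ranked 2nd, at 9.08 against 8.41 to 9.09 in the other samples. Irf4, a transcription factor that drives plasma cell maturation, was 7.23 against 5.64 to 6.14 in all other samples, with a difference of 1.47 (SE 0.14) that was called. Jchain, which joins IgA and IgM into polymers, was 9.999 against 5.73 to 8.71 and was not called. Slamf7 was 7.70 against 6.14 to 8.45 and Derl3 was 11.30 against 9.74 to 12.16, with WT nulliparous replicate 3 the highest for both. Sdc1, the plasma cell surface proteoglycan that epithelium also carries, was at a difference of -0.53 and Fkbp11, a chaperone of the secretory pathway, at -0.30. Of the 18 B cell identity genes, Bank1, an adaptor of B cell receptor signalling, was called (6.48 against 5.53 to 5.88, difference 0.78, SE 0.09).

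Genes outside the lists set the tumour apart as well. Of the 22 genes called higher against the KO tumours, 5 were markers, 8 were immunoglobulin genes, 2 were Irf4 and Bank1, and 7 were on none of the lists. Apart from 1 predicted gene these were Wfdc12, Hoxb3, Hoxb4, Fosb, Acot5 and Ppil6, named here after their values were seen. Wfdc12 was 6.79 against at most 5.52 elsewhere. Hoxb3 and Hoxb4, homeobox transcription factors of 1 gene cluster, were 9.31 and 8.08 against at most 8.17 and 7.09. Fosb, an immediate early transcription factor, was 9.19 against at most 8.19, and Acot5 was 6.18 against at most 5.47. Other genes on none of the lists were lower than in the KO nulliparous tumours without metastasis. Their log2 differences were -1.69 for Itga1, -1.62 for Hs3st3b1, -1.04 for Slc39a10, -0.63 for Psmb5, -0.56 for Chchd3 and -0.56 for Mrps35.

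**Figure D3:**
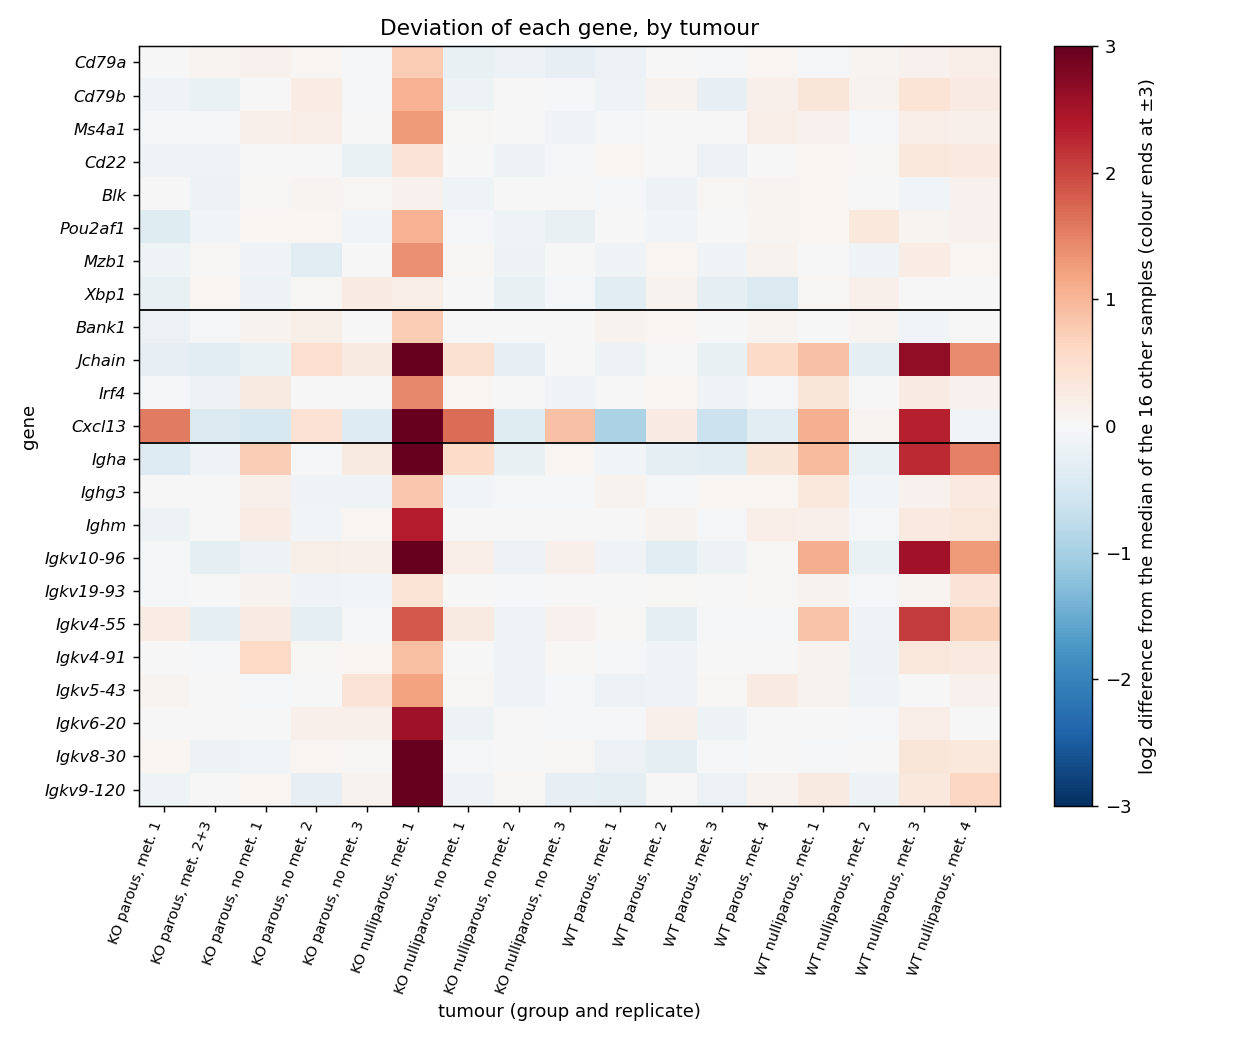
Log2 difference of each gene (y axis) in each sample (x axis, group and replicate) from the median of the 16 samples other than the lone KO nulliparous tumour with metastasis; colours end at 3 in each direction. The column of that tumour is red for most of the markers and for the immunoglobulin genes below them, and WT nulliparous replicate 3 is the next reddest for Jchain (8.71) and Igha (9.16).

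Lists of other cell types did not set the lone tumour apart to that degree. By mean log2 value, it ranked 4th of 17 for the T cell list (6.93, others 6.61 to 7.58), 5th for the pan-leukocyte list (9.19, others 8.02 to 9.58) and 5th for the macrophage list (9.95, others 8.85 to 10.53). For immunoglobulin genes it ranked first, at 8.61 against 5.89 to 6.77. Of the 18 further B cell identity genes 7 were highest there, beside 3.02% of all genes. Bank1 led the next tumour by 0.60, and the other 6 led by 0.017 to 0.18. Against the KO tumours of the same parity, the medians were 0.19 for T cell, 0.47 for macrophage and 0.73 for pan-leukocyte genes, with 0 members called. The part of leukocyte content in the markers' differences was not tested.

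Germinal centre genes (rank 4), plasmacytoid dendritic cell genes (8), B cell survival factors (10) and genes of B cell receptor signalling (5) were within the range of the other tumours. Lymphoid stroma and homing genes ranked first, at 7.61 against 7.02 to 7.49, but this rested on Cxcl13, the chemokine that draws B cells into follicles (10.29 against 5.80 to 9.07, not called). Without Cxcl13 the other 9 genes ranked 3rd, at 7.31 against 7.02 to 7.34, an alternative chosen after seeing the data. IgA plasma cell homing and transport genes ranked 5th. Adipocyte genes ranked second, fibroblast genes 8th, luminal genes 6th and skeletal muscle genes 13th. The 24 targets of Xbp1 and genes of the unfolded protein response ranked 9th, with a median log2 difference of -0.14 from the KO nulliparous tumours without metastasis.

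**Figure D4:**
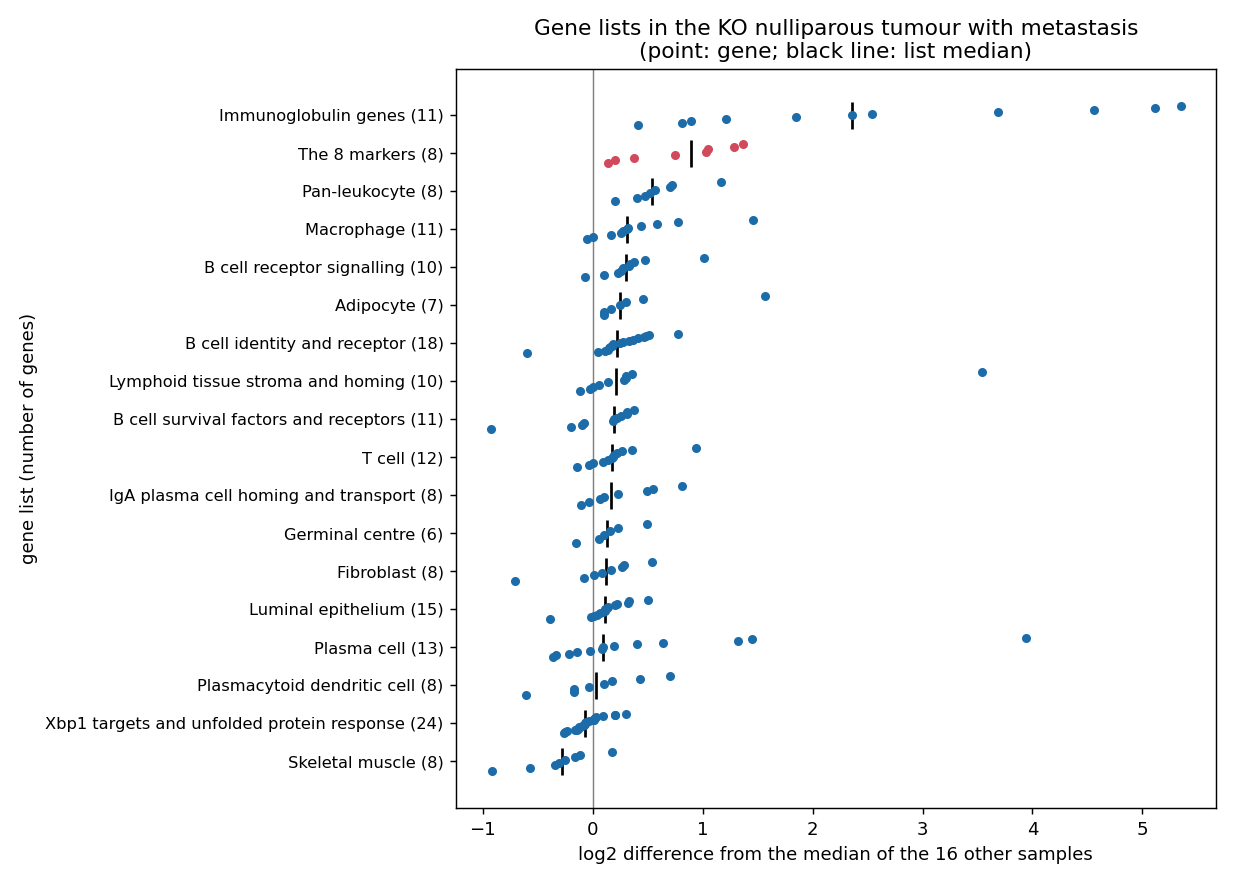
Difference of each gene (point) in the lone KO nulliparous tumour with metastasis from the median of the 16 other samples (x axis, log2), by gene list (y axis, number of genes in brackets), with the list median as a black line. Immunoglobulin genes have a median of 2.36 and the 8 markers one of 0.89; the T cell list has one of 0.18.

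Parity among WT mice with metastasis was the comparison with the most called genes, 478 of 19938 (2.4%), with 370 lower and 108 higher in the 4 parous than in the 4 nulliparous tumours by limma. None of the 8 markers was called. All 8 estimates were below 0, with a median log2 difference of -0.14 beside -0.01 over all genes. Cd79b stood at -0.31 (SE 0.10, 95% interval -0.52 to -0.10, adjusted p = 0.124), Xbp1 at -0.28 (SE 0.12, adjusted p = 0.256) and Cd22 at -0.20 (SE 0.08, adjusted p = 0.232). The other 5 lay between -0.15 and -0.04. With array weights, which count noisy arrays less, Cd79b was called by limma at -0.33 (adjusted p = 0.0328). It was then 1 of 1718 called genes of 19938, against 478 without weights.

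Other lists were lower in the same parous WT tumours. All 11 macrophage genes (median -0.57), all 8 pan-leukocyte genes (-0.55), all 12 T cell genes (-0.26) and all 11 immunoglobulin genes (-0.19) had estimates below 0, with 0 members called. Fibroblast, skeletal muscle and adipocyte genes had medians of -0.79, -0.77 and -0.62. Of all listed genes Bst2 was called, at -1.56 (SE 0.25, adjusted p = 0.0112), a restriction factor also used as a marker of plasmacytoid dendritic cells. The part of these cell types in the markers' values was not tested.

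Parity among KO mice without metastasis gave 0 called genes (0%) and 655 with an unadjusted p under 0.05. Cd79a was 0.26 higher in parous mice (SE 0.08, 95% interval 0.10 to 0.42, adjusted p = 0.9995). The 3 parous and 3 nulliparous tumours did not overlap for Cd79a and Blk, both higher in parous mice, beside 1205 of all 19938 genes (6.04%) without overlap in either direction and 627 (3.14%) with the parous tumours higher. The other 7 estimates ran from -0.10 for Mzb1 to 0.16 for Pou2af1, and the median of the 8 was 0.13. The parity difference in KO minus that in WT, which also differs in metastasis status, was 0.39 for Cd79a (SE 0.10, adjusted p = 0.288), 0.44 for Cd79b (SE 0.15, adjusted p = 0.39) and 0.41 for Xbp1 (SE 0.18, adjusted p = 0.482). For this difference 0 genes were called (0%) and 1922 had an unadjusted p under 0.05.

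Genotype among parous mice with metastasis (KO n = 2, WT n = 4) gave 0 called genes (0%), with 1142 at an unadjusted p under 0.05. The 8 markers lay between -0.22 (Pou2af1, SE 0.10, adjusted p = 0.858) and 0.15 (Xbp1, SE 0.14, adjusted p = 0.958). Metastasis among KO parous mice (2 with, 3 without) likewise gave 0 called genes (0%), with 805 at an unadjusted p under 0.05. Pou2af1 stood at -0.24 (SE 0.10, adjusted p = 0.967), Cd79b at -0.22 (SE 0.13, adjusted p = 0.967) and Mzb1 at 0.09 (SE 0.12, adjusted p = 0.969). In parous KO mice the marker estimates for metastasis were thus mostly below 0, with a median of -0.13. Over all genes the median was -0.03, and 38.9% of estimates were above 0. The lone nulliparous tumour gave a marker median of 1.04. Both marker medians share the fit, and their difference was not tested.

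In fits of genotype, parity and metastasis together, 0 genes were called for each factor (0%), and 885, 2538 and 999 had an unadjusted p under 0.05. For genotype and metastasis the largest marker estimates were those of Mzb1, 0.46 for genotype (SE 0.20, adjusted p = 0.999) and 0.56 for metastasis (SE 0.20, adjusted p = 0.955). They rested on the lone tumour: without it the genotype estimate of Mzb1 was -0.02, and those of Ms4a1 and Pou2af1 went from 0.36 to -0.13 and from 0.16 to -0.29. The metastasis estimates of Ms4a1 and Pou2af1 went from 0.38 to -0.11 and from 0.29 to -0.15. No WT tumour lacked metastasis, so part of the genotype and metastasis effects cannot be told apart.

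Across the 17 samples the 7 markers other than Xbp1 had positive correlations in all 21 pairs, and in 20 of 21 without the lone tumour, where they were lower. Their 21 pairs had a median Pearson r of 0.79, from 0.28 for Blk with Mzb1 to 0.91 for Ms4a1 with Mzb1, and 17 passed a permutation test adjusted over all 28 pairs of markers. By Spearman's rho the median was 0.50 and 6 passed. Without the lone tumour the median r was 0.45 and 2 pairs passed, Cd79b with Cd22 and Cd79b with Ms4a1, each with r = 0.71 (permutation test, adjusted p = 0.0403). By rho 0 pairs then passed, and the rho of these pairs was 0.67 and 0.64. Without the 2 samples farthest from the median, chosen by the first gene of each pair, the median r was 0.46, and for deviations from group means over 16 samples it was 0.21.

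Xbp1 had lower correlations with the others. Its 7 pairs had a median r of 0.35 with all samples and 0.11 without the lone tumour, and 0 passed. Its r with the mean of the luminal list was 0.49 (rho 0.46), with the pan-leukocyte list 0.45, with the plasma cell list 0.40 (0.41 without the 2 farthest samples) and with its targets and unfolded protein response genes 0.21 over 17 samples, and 0 of 4 lists tested passed a permutation test adjusted over them (adjusted p = 0.138 for the luminal list).

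**Figure D5:**
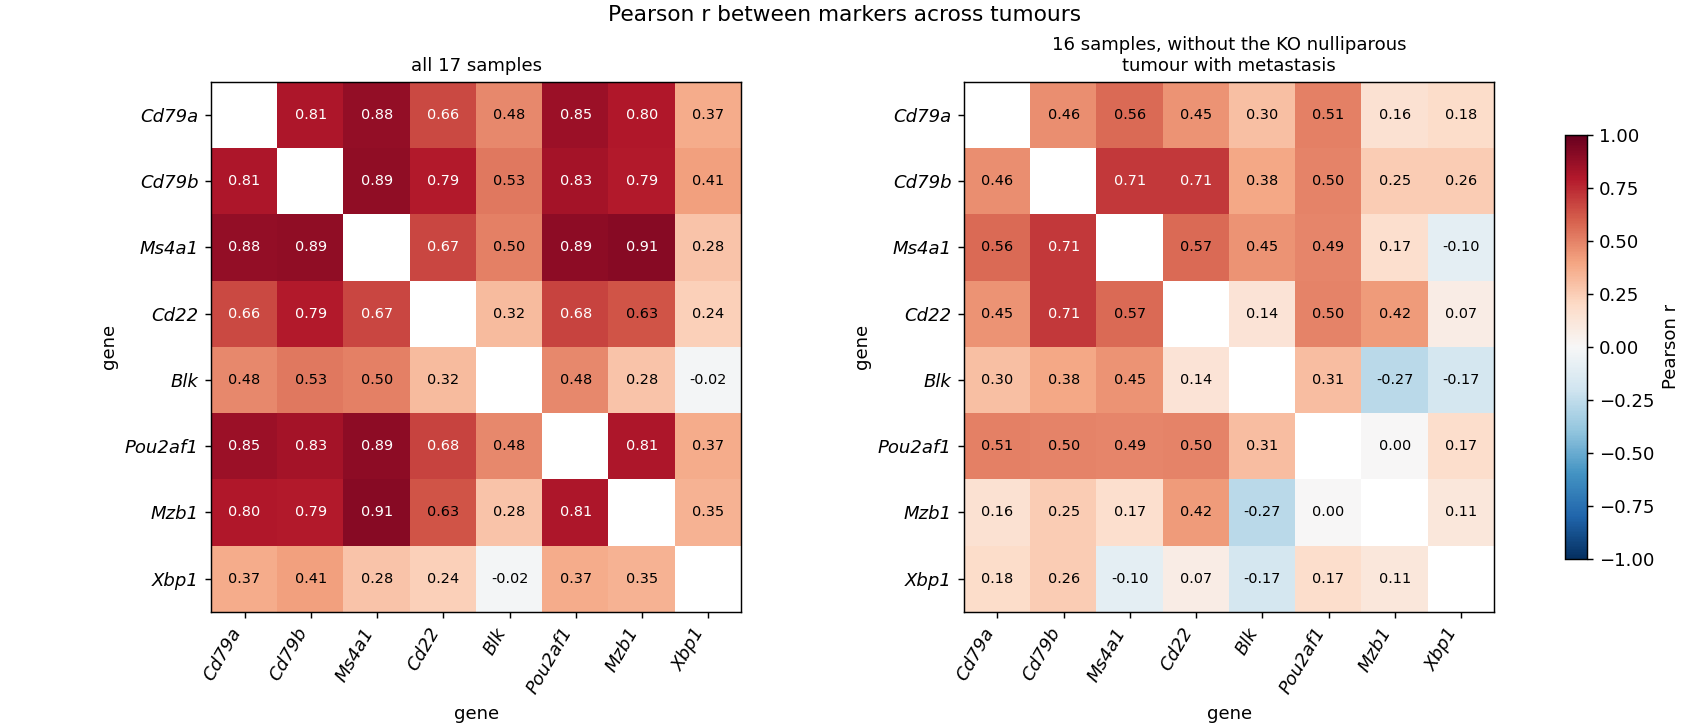
Pearson r between each pair of markers (both axes) over all 17 samples (left) and over 16 samples without the lone KO nulliparous tumour with metastasis (right). Mzb1 with Ms4a1 goes from 0.91 to 0.17, while Cd79b with Cd22 goes from 0.79 to 0.71.

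The genes most like the mean of the 5 B cell surface and signalling markers (Cd79a, Cd79b, Ms4a1, Cd22 and Blk) over 17 samples were Igkv10-96 (r = 0.93), Igha (0.93), Ighm (0.93), Irf4 (0.92), Igkv9-120 (0.91), Jchain (0.91), Igkv8-30 (0.91), Igkv6-20 (0.89), Wfdc12 (0.89) and Ighg3 (0.88). Over the 16 samples without the lone tumour their r ran from 0.43 for Wfdc12 to 0.78 for Jchain. Most like Mzb1 were Ighm (0.97), Igkv9-120 (0.96), Igkv8-30 (0.94), Igkv6-20 (0.94) and Wfdc12 (0.92), and the r of Wfdc12 was -0.10 without the lone tumour. Most like Pou2af1 were Bank1 (0.91), Ms4a1 (0.89), Ighm (0.89), Wfdc12 (0.88) and Igkv9-120 (0.87). Most like Xbp1 were Clp1 (0.82), Cd55 (0.81), Mtch2 (0.80), Jund (0.80) and Slc41a2 (0.79), with r from 0.77 to 0.80 over the 16 samples. Predicted genes were left out of these lists, and all markers were left out of the list for the mean. The lists therefore do not rank all 19938 genes. The listed genes were chosen for their r, so no p is given.

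Among the other 16 samples, 9 of the 11 immunoglobulin genes were highest in a WT nulliparous tumour, and Igkv4-91 and Igkv5-43 in a KO parous tumour without metastasis. The WT nulliparous group was uneven: by mean over the 11 genes its replicates 1 to 4 were at 6.35, 5.89, 6.77 and 6.53, and 5.89 was the lowest of all samples. Igha was 7.87, 6.72, 9.16 and 8.44 in their replicates 1 to 4, against 6.54 to 7.65 in all parous and other KO tumours. Jchain was 6.93, 5.75, 8.71 and 7.47 there, against 5.73 to 6.63 elsewhere. Replicates 1, 3 and 4 were above those ranges for both genes, replicate 1 by the least, and replicate 2 was not. The T cell list had its highest level of all 17 samples, 7.58, in replicate 3 too.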

How the data were processed

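Total RNA of mammary tumours was hybridised to 18 single-colour Affymetrix arrays, which the labels name by mouse. Whether the near-identical arrays of KO parous mice with metastasis come from 1 tumour is not known. The deposited values are log2 expression of 35556 probe sets. Per the submitters' processing notes the authors used RMA and oligo, in versions the sources used here do not give. RMA subtracts background, equalises array distributions and summarises probes, which compresses dim genes and removes shifts shared by all genes. Array medians lay between 7.60 and 7.67. Arrays have no read depth, and their number limits the precision.

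The platform annotation gave 1 gene to 21789 probe sets, several to 1621 and none to 12146. For each gene the probe set of 1 gene with the highest mean was kept (19938 genes, 19855 matched by Entrez identifier to RefSeq genes of GRCm38.p6). The arrays are labelled as biological replicates. The sources used here do not say whether mice shared litters or arrays were run in batches.

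Tests were 2-sided and used limma 3.58.1 under R 4.3.3 (lmFit, then eBayes, Benjamini-Hochberg over 19938 genes, adjusted p under 0.05). Direct comparisons came from a fit of 6 group means with 11 residual degrees of freedom, the others from an additive fit. The fit of group means was checked on simulated data for parity in WT mice, and the additive fit was not checked this way. Correlations had 100000 permutations. The markers and 16 further gene lists held 204 entries, of which 185 matched a gene, and immunoglobulin genes were taken by symbol. Alternatives were both near-identical arrays kept apart, quantile normalization again, the dimmest 40% of genes left out, the mean of probe sets, fewer groups in the fit, a trended robust variance, array weights, a replicate block and each sample left out. The markers, lists, comparisons and the rules for named genes were chosen with earlier results of these data known. Named genes are the 8 markers, called list genes, the genes of widest range and those most alike by r. Jchain, Cxcl13, Wfdc12 and the per-tumour values were picked out after their values were seen where no rule names them.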

Additional observations from a re-analysis of the deposited data

Results flagged for a closer look

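Each marker was searched for a sample that stands apart in groups of 4 to 10 samples by Dixon's criterion, in 56 groups; chance alone marks about 1 in 20 groups. It marked 13 values, 11 of them the lone KO nulliparous tumour with metastasis. Among all KO tumours (n = 9) these were Cd79a at 6.37 (others 5.37 to 5.74), Cd79b at 8.27 (7.02 to 7.46), Ms4a1 at 6.76 (5.37 to 5.67), Cd22 at 7.19 (6.60 to 6.82), Pou2af1 at 8.10 (6.71 to 7.14) and Mzb1 at 8.56 (6.88 to 7.23). Among all nulliparous tumours (n = 8) the same tumour was marked for Cd79a, Cd79b, Ms4a1, Pou2af1 and Mzb1, at the same values.

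The remaining 2 values belong to other tumours. Ms4a1 was 5.67 in WT parous replicate 4, against 5.45 to 5.48 in the rest of its group (n = 4). Pou2af1 was 6.71 in KO parous replicate 1 with metastasis, against 6.98 to 7.16 in the other parous samples (n = 9).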

How the results depend on the processing

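No marker changed side of the threshold in the comparisons of groups with 2 or more samples, except Cd79b in WT parity with array weights (-0.33, 1 marker called). Counts of genes moved more. WT parity called 878 genes with only its 2 groups in the fit, 1718 with array weights, 126 with a replicate block and 57 to 770 with a sample left out. Parity in the additive fit called 55 with both near-identical arrays kept apart, 781 with array weights and 0 to 369 with a sample left out, and metastasis 2 and 0 to 1. Leaving out a sample gave 0 to 2 genes for KO parity, 0 to 17 for genotype in parous mice, 0 to 5 for metastasis in KO parous mice and 0 to 8 for the parity difference. The lone tumour against KO nulliparous tumours called 0 genes and 0 markers with only its groups, 6 and 0 with the dimmest 40% of genes left out, where 1 of 8 markers (Xbp1) is kept, and 16 genes with a replicate block. Against WT the first 2 settings gave 10 and 2 genes and 0 markers. Under the block, Cd79b lost its call against KO tumours (1.13, adjusted p = 0.0766) and Pou2af1 against WT (0.91, adjusted p = 0.0733). The numbers do not pair the samples: same-numbered tumours of different groups had a median r of -0.03 over 19 pairs, against 0.06 over 54 others. With a sample left out, 10 additive estimates turned sign, each without the lone tumour. For genotype they ran from -0.22 to 0.34 in Cd79b, -0.13 to 0.55 in Ms4a1, -0.13 to 0.059 in Cd22, -0.29 to 0.40 in Pou2af1 and -0.022 to 0.69 in Mzb1. For parity they ran from -0.12 to 0.036 in Cd79a and -0.23 to 0.023 in Ms4a1. For metastasis they ran from -0.098 to 0.47 in Cd79b, -0.11 to 0.58 in Ms4a1 and -0.15 to 0.53 in Pou2af1. The median r of the 21 pairs was 0.21 for deviations from group means, 0.46 without the 2 farthest samples and 0.45 without the lone tumour. Other changes of sign were smaller than 1 standard error and count as unchanged here. The cause of these changes was not tested. The lone group has 1 tumour and KO parous mice with metastasis 2 samples, the dim markers lie where RMA compresses differences, and no WT mouse without metastasis is among the samples.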
